A study of Mus musculus with 8 samples.

Results

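The genes described here are 10 genes that are commonly used as markers of the choroid plexus, namely Ttr, Clic6, Folr1, Kl, Enpp2, Prlr, Sostdc1, Igfbp2, Igf2 and Otx2. They were taken by name from the 46078 rows of a table of read counts per gene, in which each had 1 row. The RNA came from the hippocampus of mice 9 weeks old on the C57BL/6J background. A group of 4 libraries came from carriers (Cre+/-) of Tg(Camk2a-cre)T29-1Stl, abbreviated T29-1 Cre, a line that makes Cre recombinase under the Camk2a promoter, which is active in excitatory neurons of the forebrain. The other group of 4 libraries came from wild type (WT) mice, and no floxed target gene is named for either. Ttr was chosen by its measured levels in the contrast of T29-1 Cre with WT, and the other genes as known markers around it, so the genotype contrast of Ttr is described without a test. The question asked of the other 9 genes is whether each follows Ttr from library to library.

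The choroid plexus is a secretory epithelium on a core of vessels and connective tissue that hangs in the brain ventricles and makes cerebrospinal fluid. It borders the hippocampus at the choroid fissure. Its epithelial cells are known for very high levels of Ttr and for transporters, channels and secreted hormones and growth factors, while several of the genes used to mark it are also transcribed in neurons, oligodendrocytes, vessels or meninges. In bulk RNA, fewer cells of a type and less RNA per cell cannot be told apart.

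The T29-1 Cre libraries held 23358289 to 27543742 counts and the WT libraries 23694841 to 30882631. Hippocampal markers were present in every library: Prox1 of dentate granule cells was at 107 to 141 CPM (counts scaled to the library total, TMM-adjusted) in T29-1 Cre and 96.9 to 129 CPM in WT, and Wfs1 of CA1 pyramidal cells at 90.2 to 175 CPM in T29-1 Cre and 133 to 154 CPM in WT. WT replicate 4 stood apart: its score on the leading principal component was 33.4, against -8.74 to 0.687 in the other 7 libraries. A single gene, St6gal2, was called higher in T29-1 Cre than in WT (edgeR quasi-likelihood adjusted p under 0.05), which is 0.00625% of the 15996 genes that passed the filter on low counts. Of the 10 genes, 8 passed that filter. Folr1 and Otx2 did not and are given as counts.

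Ttr and Clic6 varied together. Kl followed Ttr in direction, but its counts spread by about as much as counting noise gives, so that no variation beyond that noise was detectable. The other genes did not reach the correlation used here to say that a gene follows Ttr. Igf2 and Igfbp2 spread well beyond counting noise without reaching that correlation, so the tested genes did not all vary as 1 group. Prlr and Sostdc1, like Kl, spread by no more than about that noise. Folr1 and Otx2 were too low to be tested. Among the 7 tested genes other than Ttr, 2 reached a Pearson r of 0.7 with Ttr over the 8 libraries, Clic6 at 0.97 and Kl at 0.89. The same r was reached by 2.18% of the 15995 other tested genes, and their median r was 0.01. No gene passed the exact permutation test of r after adjustment over all tested genes (0%), and 4.29% had an unadjusted p under 0.05. The order of the remaining 5 was Enpp2 (0.47), Prlr (0.09), Igf2 (0.06), Igfbp2 (-0.09) and Sostdc1 (-0.50).

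**Figure D1:**
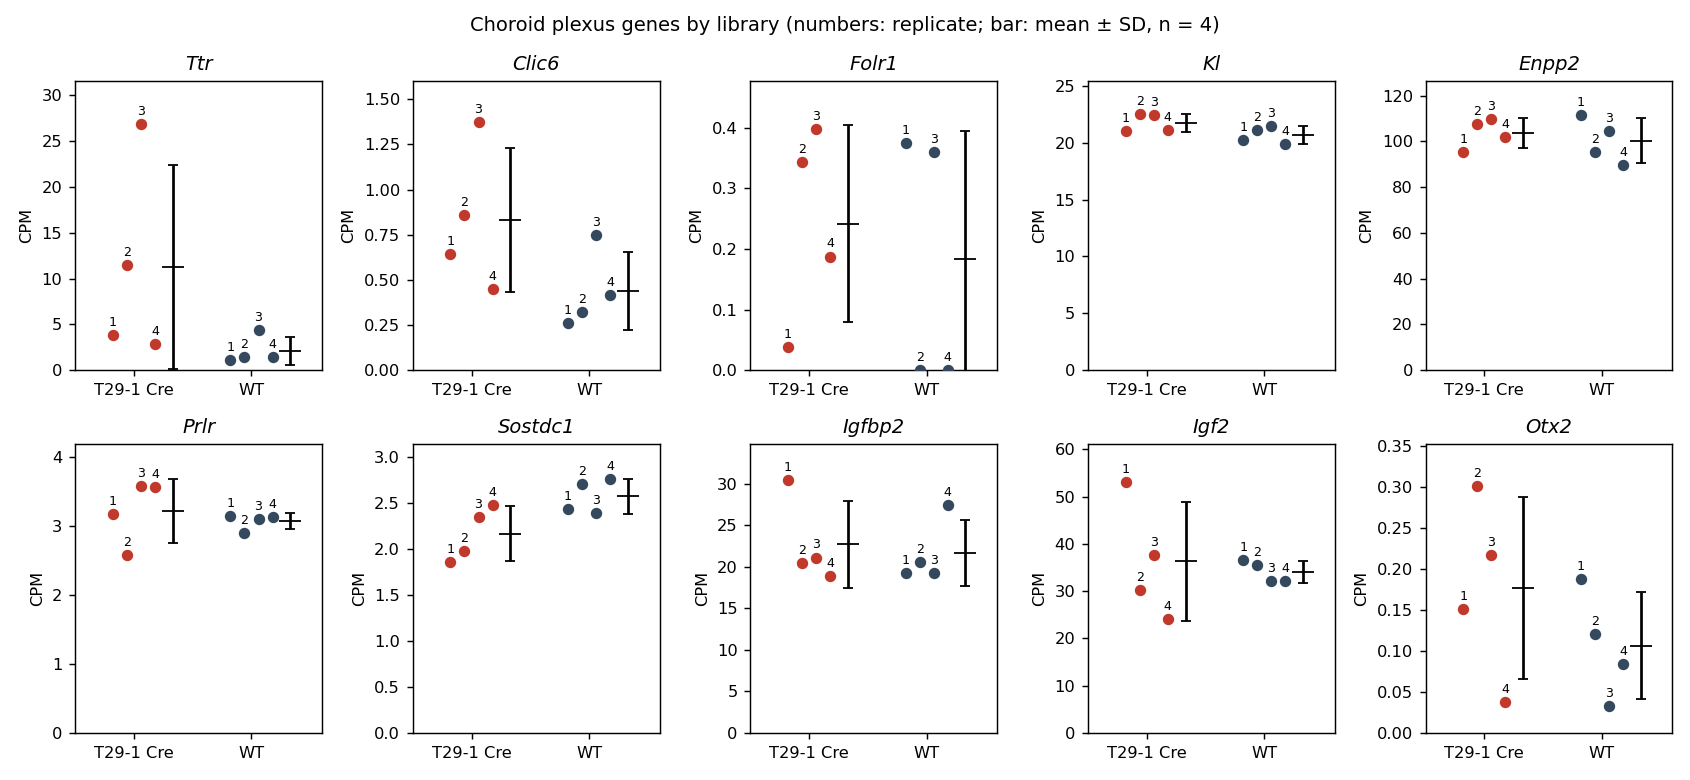
CPM of each of the 10 genes in each library, with T29-1 Cre on the left of each panel and WT on the right; small numbers are replicate numbers and bars give the mean ± SD of 4 libraries. Ttr spans 1.08 to 26.9 CPM with T29-1 Cre replicate 3 on top, while Kl stays between 19.8 and 22.5 CPM.

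Ttr encodes transthyretin, a carrier of thyroid hormone and of retinol bound to its own carrier protein. It lies on the plus strand of chromosome 18 (20665280 to 20674321, GRCm38, GENCODE M21) and no other annotated gene overlaps it. Its level was 3.89, 11.5, 26.9 and 2.81 CPM in T29-1 Cre replicates 1 to 4, against 1.08, 1.45, 4.37 and 1.42 CPM in WT replicates 1 to 4. T29-1 Cre replicates 2 and 3 were the highest of all libraries, and the genotypes overlapped because WT replicate 3 lay above T29-1 Cre replicates 1 and 4. The mean was 11.3 ± 11.1 CPM in T29-1 Cre and 2.08 ± 1.54 CPM in WT (SD, n = 4 each), and the highest library held 24.8 times the level of the lowest. The fitted log2 fold change of T29-1 Cre over WT was 2.39 (SE 0.633), and it was 1.48 without T29-1 Cre replicate 3 and 3.10 without WT replicate 3. These values rest on 75 to 744 counts in T29-1 Cre and 29 to 134 counts in WT. Over the 8 libraries the counts spread by 312 times what counting noise gives, taken as chi-square over its degrees of freedom.

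Clic6, which encodes an intracellular chloride channel protein of secretory epithelia, had the highest Pearson r with Ttr of the 15995 other tested genes, by a small margin: 0.9673, against 0.9669 for Tmprss7. Pitpnm3 had the same Spearman rho as Clic6, and a higher r without T29-1 Cre replicates 2 and 3 (0.955 against 0.946 for Clic6). Clic6 was at 0.642, 0.860, 1.37 and 0.450 CPM in T29-1 Cre replicates 1 to 4, against 0.262, 0.323, 0.751 and 0.418 CPM in WT replicates 1 to 4. T29-1 Cre replicate 3 was again the highest, WT replicate 3 was the highest of its genotype, and the genotypes overlapped. Pearson's r with Ttr was 0.97 (exact permutation p = 4.96e-05, adjusted p = 0.793 over all tested genes) and Spearman's rho was 0.98 (exact permutation p = 0.000397). Without T29-1 Cre replicates 2 and 3, the libraries farthest from the median of Ttr, r was 0.95 over 6 libraries. Taken as deviations from the genotype means it was also 0.95.

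Clic6 moved less than Ttr did. Its log2 CPM changed by 0.43 for each unit of log2 CPM of Ttr, and the highest library held 5.24 times the level of the lowest. The counts of Ttr per count of Clic6 were 6.06, 13.4, 19.6 and 6.25 in T29-1 Cre replicates 1 to 4, against 4.14, 4.5, 5.83 and 3.4 in WT replicates 1 to 4, so that the ratio was not the same in all libraries. Clic6 rests on 7 to 38 counts per library. Its mean was 0.831 ± 0.398 CPM in T29-1 Cre and 0.438 ± 0.218 CPM in WT (SD, n = 4 each). The log2 fold change was 0.89 (SE 0.394, 95% interval 0.04 to 1.73, edgeR quasi-likelihood adjusted p = 0.998), and an exact two-sided permutation test of the genotypes gave p = 0.114. Without T29-1 Cre replicate 3 the fold change was 0.52 on the log2 scale, and without WT replicate 3 it was 1.32. Clic6 is on the plus strand of chromosome 16 (92485736 to 92541243), where a transcript named 2410124H12Rik overlaps it on the same strand.

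Kl encodes klotho, the co-receptor for fibroblast growth factor 23, and is known to be high in the choroid plexus and also present in hippocampal neurons. Its level was 21.0, 22.5, 22.4 and 21.1 CPM in T29-1 Cre replicates 1 to 4, against 20.2, 21.1, 21.5 and 19.8 CPM in WT replicates 1 to 4. T29-1 Cre replicates 2 and 3, the libraries highest in Ttr, were also highest in Kl, and WT replicate 3 was the highest WT library in both. Kl had an r with Ttr of 0.89 (exact permutation p = 0.00441, adjusted p = 0.951), rho was 0.86 (exact permutation p = 0.0107), and r was 0.74 without T29-1 Cre replicates 2 and 3. The whole range of Kl was 1.13-fold, and its slope was 0.036 log2 units per log2 unit of Ttr. Its counts of 475 to 659 per library spread by 1.04 times counting noise, so that no variation beyond it was detectable. Of the other tested genes, 5.43% had an r of at least 0.7 with Kl, so that such values are more common for Kl than for Ttr. Between the genotypes Kl had a log2 fold change of 0.07 (SE 0.0593, 95% interval -0.05 to 0.20, edgeR quasi-likelihood adjusted p = 0.998).

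**Figure D2:**
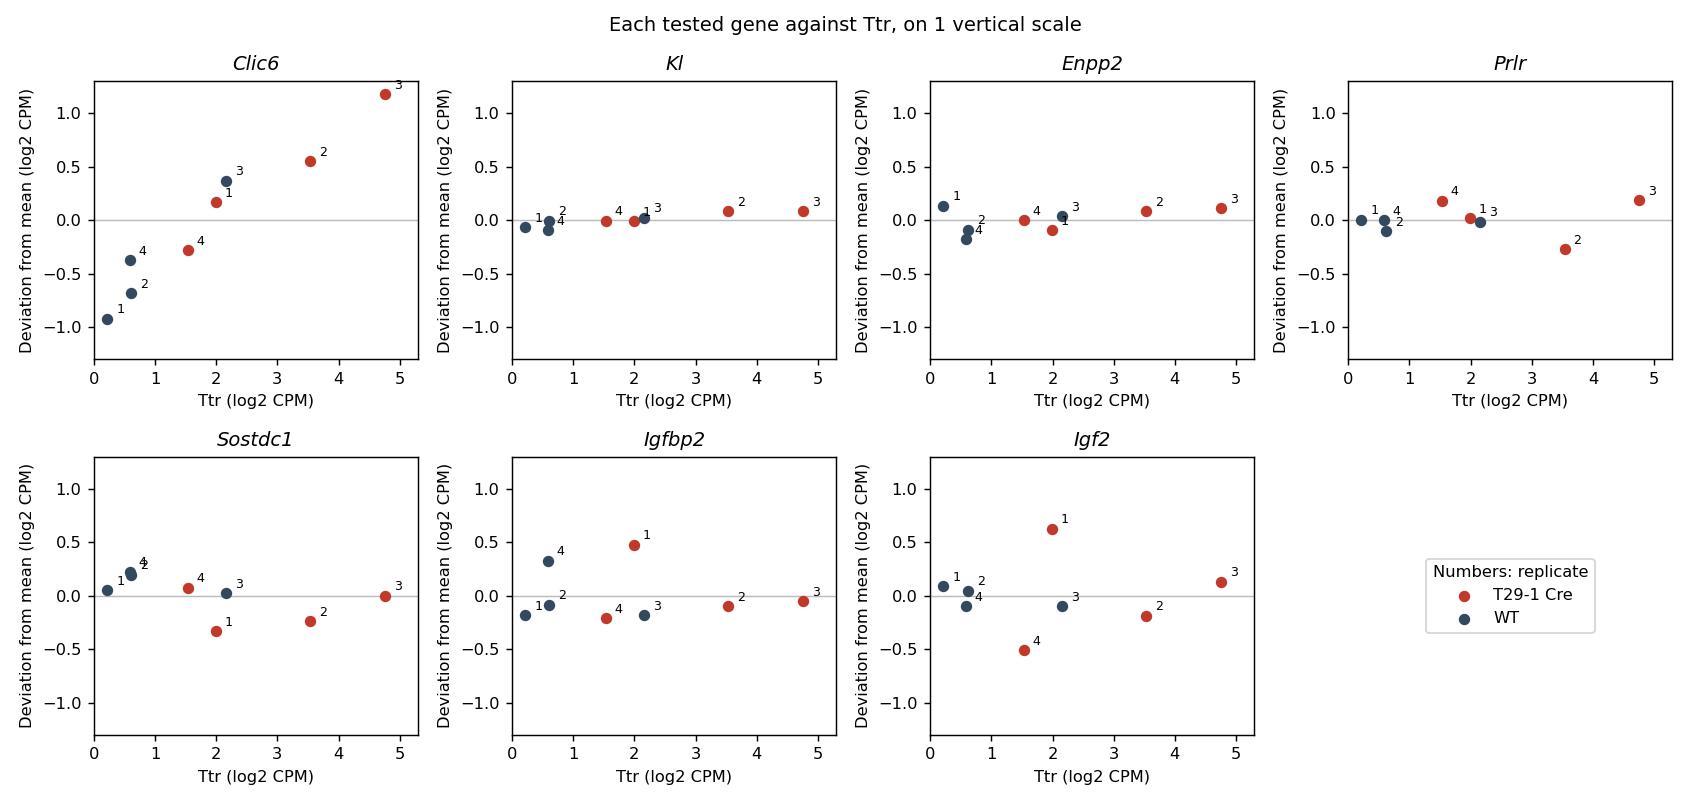
Deviation of each tested gene from its own mean (vertical, log2 CPM, the same scale in every panel) against the log2 CPM of Ttr (horizontal), 1 point per library, red for T29-1 Cre and dark for WT, with replicate numbers. Clic6 climbs with Ttr at a slope of 0.43, Kl lies on an almost flat line at 0.036, and Igf2 and Igfbp2 are highest in T29-1 Cre replicate 1, where Ttr is 3.89 CPM.

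A promoter sequence was at hand for 5 of the 10 genes, with 14 start sites in all (RefSeq, GRCm38.p6). The 250 bases before the start are shown for Kl, the tested gene of these 5 at an r of at least 0.7 with Ttr, at chr5:150952357-150952606 on the plus strand. They are also shown for Prlr, below that r, at chr15:10176988-10177237 on the plus strand. Neither gene spread by more than about counting noise.
Kl: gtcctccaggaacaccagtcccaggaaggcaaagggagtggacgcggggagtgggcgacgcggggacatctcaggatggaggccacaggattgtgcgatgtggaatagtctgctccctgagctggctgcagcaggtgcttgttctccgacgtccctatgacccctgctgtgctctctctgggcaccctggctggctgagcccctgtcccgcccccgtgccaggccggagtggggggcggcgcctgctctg
Prlr: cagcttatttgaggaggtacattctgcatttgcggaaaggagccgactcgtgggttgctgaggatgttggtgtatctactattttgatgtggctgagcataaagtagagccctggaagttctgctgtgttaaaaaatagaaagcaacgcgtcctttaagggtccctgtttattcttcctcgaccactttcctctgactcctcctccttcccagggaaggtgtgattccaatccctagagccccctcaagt
No capitals appear because the motif searched on both strands, TAATCC, the core bound by OTX2, a homeobox factor of the choroid plexus, is in neither window. It was in 1 of the 14 windows, an Otx2 start, and in 6.25% of 32851 promoter windows of the same length. The Kl window had 66.8% G and C with 13 CpG, the Prlr window 48.0% with 6.

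Folr1 encodes the folate receptor through which the choroid plexus passes folate into cerebrospinal fluid. It had 1, 8, 11 and 5 counts in T29-1 Cre replicates 1 to 4, against 10, 0, 11 and 0 counts in WT replicates 1 to 4. Replicate 3 of each genotype was the highest in raw counts, yet WT replicate 1, the library lowest in Ttr, had 10. A count of 0 allows up to 0.121 CPM in WT replicate 2 and 0.125 CPM in WT replicate 4. Folr1 had an r with Ttr of 0.54 (exact permutation p = 0.167), and of 0.22 without T29-1 Cre replicates 2 and 3. Folr1 (chromosome 7, 101858331 to 101870788, minus strand) overlaps Anapc15 on the other strand, a gene with 394 to 445 counts in T29-1 Cre and 379 to 486 in WT, and where counting ignored strand the reads of the overlap cannot be told apart.

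Otx2, the homeobox factor that the choroid plexus needs for its development and upkeep, had 4, 7, 6 and 1 counts in T29-1 Cre replicates 1 to 4, against 5, 3, 1 and 2 counts in WT replicates 1 to 4. The libraries highest in Ttr were the highest here too, but WT replicate 3 and T29-1 Cre replicate 4 had the fewest counts, 1 each. Otx2 had an r with Ttr of 0.42 (exact permutation p = 0.300), and -0.55 without T29-1 Cre replicates 2 and 3. With 29 counts in all, whether Otx2 follows Ttr is not detectable at this depth.

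Enpp2 encodes autotaxin, the secreted enzyme that makes lysophosphatidic acid, and oligodendrocytes are another known source of it. It was at 95.2, 108, 109.9 and 102 CPM in T29-1 Cre replicates 1 to 4, against 112, 95.6, 104 and 89.7 CPM in WT replicates 1 to 4. The highest library was WT replicate 1, in which Ttr was lowest. The r with Ttr was 0.47 (exact permutation p = 0.246, adjusted p = 0.951), -0.02 without T29-1 Cre replicates 2 and 3, and 0.87 without WT replicate 1. In WT replicate 1 the summed level of 20 oligodendrocyte markers was 4818 CPM, the highest of all libraries. It was 3891 to 4267 CPM in T29-1 Cre and 3975 to 4141 CPM in the other WT libraries. The lowest sum, 3891 CPM, was in T29-1 Cre replicate 3, where Enpp2 was at 109.9 CPM, next to its highest. The part of this sum in the result was not tested. Between the genotypes the log2 fold change was 0.05 (SE 0.069, 95% interval -0.10 to 0.19, edgeR quasi-likelihood adjusted p = 0.998).

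Prlr, the prolactin receptor, was at 3.17, 2.58, 3.57 and 3.56 CPM in T29-1 Cre replicates 1 to 4, against 3.14, 2.90, 3.10 and 3.13 CPM in WT replicates 1 to 4. T29-1 Cre replicate 2, next to the top in Ttr, was the lowest. The r with Ttr was 0.09 (exact permutation p = 0.834, adjusted p = 0.978), and it ran from -0.48 without T29-1 Cre replicate 3 to 0.65 without T29-1 Cre replicate 2. The counts, 60 to 99 per library, spread by 0.843 times counting noise, so that no variation beyond it was detectable. The log2 fold change between the genotypes was 0.07 (SE 0.135, edgeR quasi-likelihood adjusted p = 0.998).

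Sostdc1, a secreted antagonist of bone morphogenetic protein and Wnt signalling, had the lowest r of the set. It was at 1.85, 1.98, 2.35 and 2.47 CPM in T29-1 Cre replicates 1 to 4, against 2.43, 2.70, 2.38 and 2.76 CPM in WT replicates 1 to 4. The lowest libraries, T29-1 Cre replicates 1 and 2, were among the 4 highest in Ttr, and the genotypes overlapped. The r with Ttr was -0.50 (exact permutation p = 0.192, adjusted p = 0.951) and rho was -0.69 (exact permutation p = 0.0694). It was -0.05 as deviations from the genotype means, -0.63 without T29-1 Cre replicates 2 and 3, and between -0.74 and -0.38 with each library left out in turn. Sostdc1 averaged 2.16 ± 0.296 CPM in T29-1 Cre and 2.57 ± 0.189 CPM in WT (SD, n = 4 each). That is -0.24 on the log2 scale (SE 0.149, 95% interval -0.56 to 0.08, edgeR quasi-likelihood adjusted p = 0.998). Its counts, 46 to 73 per library, spread by 1.05 times counting noise, so that no variation beyond it was detectable.

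Igf2, insulin-like growth factor 2, is secreted by the choroid plexus, by meninges and by vessels, and Igfbp2 encodes a binding protein for it. Igf2 was at 53.1, 30.2, 37.6 and 24.1 CPM in T29-1 Cre replicates 1 to 4, against 36.6, 35.5, 32.1 and 32.1 CPM in WT replicates 1 to 4. The highest and the lowest library were both of T29-1 Cre. Igfbp2 was at 30.4, 20.4, 21.1 and 18.9 CPM in T29-1 Cre replicates 1 to 4, against 19.3, 20.6, 19.3 and 27.5 CPM in WT replicates 1 to 4. T29-1 Cre replicate 1 was the highest for both genes, with WT replicate 4 next for Igfbp2.

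Neither gene followed Ttr. The r with Ttr was 0.06 for Igf2 (exact permutation p = 0.892, adjusted p = 0.983) and -0.09 for Igfbp2 (exact permutation p = 0.858, adjusted p = 0.979), although their counts spread by 53.2 and 22.0 times counting noise. Their r with each other was 0.65 (exact permutation p = 0.0874, adjusted p = 0.883 over all genes set against Igf2). The log2 fold change between the genotypes was 0.09 for Igf2 (SE 0.172) and 0.07 for Igfbp2 (SE 0.144), each at an edgeR quasi-likelihood adjusted p of 0.998. Without T29-1 Cre replicate 1 these values were -0.15 and -0.10.

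Markers of fibroblasts, among those of other cell types, were high in the same library as Igf2 and Igfbp2. The summed level of 24 markers of meningeal and perivascular fibroblasts was 455.8, 265, 345 and 242 CPM in T29-1 Cre replicates 1 to 4, against 285, 288, 329 and 442 CPM in WT replicates 1 to 4. In WT replicate 4, next highest in this sum, Igfbp2 was at 27.5 CPM but Igf2 at 32.1 CPM, so the sum and Igf2 parted there. Not all of its markers were high in WT replicate 4. Slc22a8 was at its lowest level of all libraries there (6.69 CPM), while Crabp2, taken up below, was next to its highest (0.878 CPM). None of the 24 markers was at 0 counts. Sums of endothelial and mural (534 CPM), astrocyte (7213 CPM) and other choroid plexus genes (1034 CPM) were also highest in T29-1 Cre replicate 1. Ependymal, oligodendrocyte and blood cell sums were highest in WT replicate 1, and the thalamic and habenular sum in T29-1 Cre replicate 4. The part of any of these sums in the result was not tested. Col1a1, a fibrillar collagen chosen after its values were seen, was at 19.04 CPM in T29-1 Cre replicate 1 and at 5.55 to 10.04 CPM in the other T29-1 Cre libraries, against 8.85 to 10.7 CPM in WT. Its r with Igf2 was 0.97 (exact permutation p = 0.00169, adjusted p = 0.659), while 3.73% of genes had an r of at least 0.7 with Igf2. Cldn5 of the endothelial and mural list, likewise named after its values were seen, had an r of 0.94 with Igf2 (exact permutation p = 0.00717, adjusted p = 0.659). Crabp2, a retinoic acid binding protein of meninges with 6 to 27 counts per library, was also chosen after its values were seen. Its r with Igfbp2 was 0.96 (exact permutation p = 0.000645, adjusted p = 0.519, against a share of 4.95% at 0.7 or more). The highest r with Igfbp2 was that of Icam1, likewise named after its values were seen (0.962, against 0.960 for Crabp2).

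Per kilobase of exon, the mean of Ttr was below that of Enpp2 and Igfbp2 in both genotypes, but the order differed between libraries. In T29-1 Cre replicate 3 Ttr was the highest of the 10 genes, at 22.6 CPM per kb against 19.01 for Enpp2. Igfbp2 and Enpp2 were level at the top in T29-1 Cre replicate 1 (each 16.5 CPM per kb), and Enpp2 was the highest in the other 6 libraries. In T29-1 Cre the mean level was 17.9 ± 1.13 CPM per kb for Enpp2, 12.3 ± 2.83 for Igfbp2, 9.50 ± 9.35 for Ttr, 6.34 ± 2.19 for Igf2, 2.33 ± 0.0869 for Kl and 1.21 ± 0.166 for Sostdc1 (SD, n = 4). In WT it was 17.4 ± 1.68 for Enpp2, 11.7 ± 2.13 for Igfbp2, 5.95 ± 0.403 for Igf2, 2.22 ± 0.0833 for Kl, 1.76 ± 1.295 for Ttr and 1.44 ± 0.106 for Sostdc1 (SD, n = 4). Clic6, Prlr, Folr1 and Otx2 were the lowest in both, at 0.212, 0.210, 0.105 and 0.0418 CPM per kb in T29-1 Cre and 0.112, 0.2002, 0.0798 and 0.0251 in WT. The spread of Ttr in T29-1 Cre covers that of its neighbours Igfbp2 and Igf2, and in WT it covers those of Kl and Sostdc1.

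Clic6 and Kl also had an r of 0.81 with each other (exact permutation p = 0.0153, adjusted p = 0.999 over all genes set against Clic6). Enpp2 and Igfbp2 had an r of -0.70 (exact permutation p = 0.0556, adjusted p = 0.363 over all genes set against Enpp2). The share of all tested genes at an r of at least 0.7 was 1.97% with Clic6, 6.41% with Enpp2, 1.11% with Prlr and 2.26% with Sostdc1.

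Between the genotypes, edgeR called 0 of the 7 tested genes other than Ttr, as did DESeq2 and limma-voom, and each had 1 gene, Clic6, at an unadjusted p under 0.05. Among all tested genes 2.43% had such a p. In 0 of the 8 tested genes were the libraries of the genotypes apart, against 1.81% of all tested genes. Their log2 fold changes ran from -0.24 for Sostdc1 to 2.39 for Ttr, and the median over all tested genes was -0.00075.

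**Figure D3:**
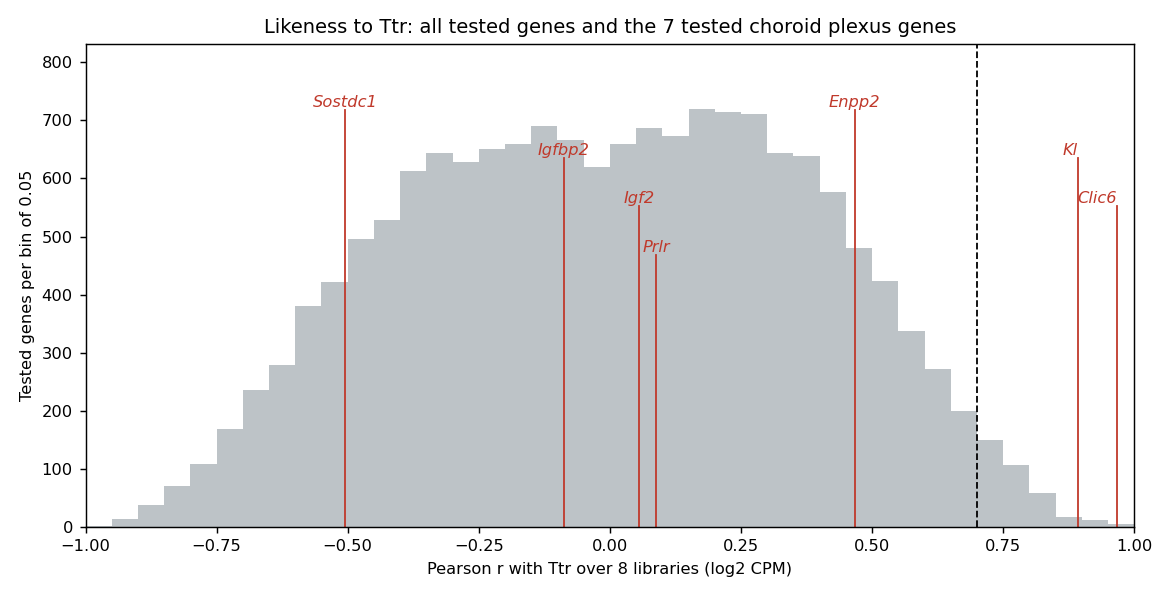
Histogram of Pearson's r with Ttr over 8 libraries for 15995 tested genes (grey, bins of 0.05), with red lines for the 7 tested choroid plexus genes and a dashed line at 0.7. Clic6 and Kl lie beyond the dashed line, where 2.18% of all genes lie, and the other 5 lie within the bulk.

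A wider list of 54 other genes of choroid plexus epithelium was read the same way. Of the 52 that had a row, 36 were tested, and 2 of them (5.56%) had an r of at least 0.7 with Ttr, against 2.18% of all tested genes, with a median r of 0.18. The highest were Sulf1, a heparan sulfate endosulfatase (0.74), coagulation factor F5 (0.73), Vat1l (0.63), the anion exchanger Slc4a2 (0.61), the homeobox gene Msx1 (0.57) and the angiotensin converting enzyme Ace (0.43). For these 6, in that order, r without T29-1 Cre replicates 2 and 3 was 0.31, 0.11, 0.39, -0.36, 0.18 and 0.46. As deviations from the genotype means it was 0.71, 0.71, 0.13, 0.66, -0.01 and 0.27. The lowest were Slc29a4 (-0.38), Ltc4s (-0.49) and Bst2 (-0.51). Between the genotypes edgeR called 0 of the 36, as did DESeq2 and limma-voom, with 2 at an unadjusted p under 0.05 by each tool (by edgeR, Vat1l and Msx1), where 2.43% of all tested genes had such a p by edgeR. The fold change was above 0 for 21 and below 0 for 15, with a median of 0.02 on the log2 scale.

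Further genes of that list were too low to be tested, and several were highest where Ttr was. Of 14 untested genes with at least 10 counts in all, 6 were highest in T29-1 Cre replicate 3, against 12.4% of 4339 untested rows with as many counts. 3 were highest in another T29-1 Cre library and 5 in a WT library. Of the 36 tested genes of the list, 4 were highest in T29-1 Cre replicate 3, against 10.6% of all tested genes. The summed level of the whole list was highest in T29-1 Cre replicate 1, at 1034 CPM, against 1017 CPM in T29-1 Cre replicate 3. All 6 untested genes highest in T29-1 Cre replicate 3 are given here, named after their values were seen. Cldn2, a claudin of tight junctions and with 82 counts the highest of them, had 7, 8, 14 and 10 counts in T29-1 Cre replicates 1 to 4, against 9, 9, 15 and 10 counts in WT replicates 1 to 4. It counts among the 6 only after scaling, with 16.3% of its summed CPM in T29-1 Cre replicate 3 and 15.8% in WT replicate 3. Aqp1, the water channel of the apical membrane, had 6, 13, 23 and 9 counts in T29-1 Cre replicates 1 to 4, against 8, 5, 11 and 5 counts in WT replicates 1 to 4. Kcnj13, an inward rectifier potassium channel, had 9, 3, 17 and 2 counts in T29-1 Cre, against 2, 1, 4 and 6 in WT. Slc4a5, a sodium bicarbonate cotransporter, had 4, 4, 12 and 5 counts in T29-1 Cre, against 2, 4, 0 and 1 in WT. In Aqp1, Kcnj13 and Slc4a5, T29-1 Cre replicate 3 stands highest and the genotypes overlap.

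Kcne2, a potassium channel subunit, had 0, 1, 10 and 3 counts in T29-1 Cre replicates 1 to 4, against 0, 0, 3 and 2 counts in WT replicates 1 to 4. Tmem72, a membrane protein gene of the choroid plexus, had 3, 2, 11 and 1 counts in T29-1 Cre, against 0 in every WT library. Summed per genotype, Tmem72 had 17 counts in T29-1 Cre, or 6 without T29-1 Cre replicate 3. With WT set to a floor of 3 counts over the group, the ratios of T29-1 Cre to WT were 5.78 and 2.78. These ratios allow no error in the T29-1 Cre counts, so they are not lower limits. Other untested genes of the list went elsewhere: Calml4 had its highest count, 15, in WT replicate 1, and Krt18 had 0 counts in T29-1 Cre replicate 3.

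**Figure D4:**
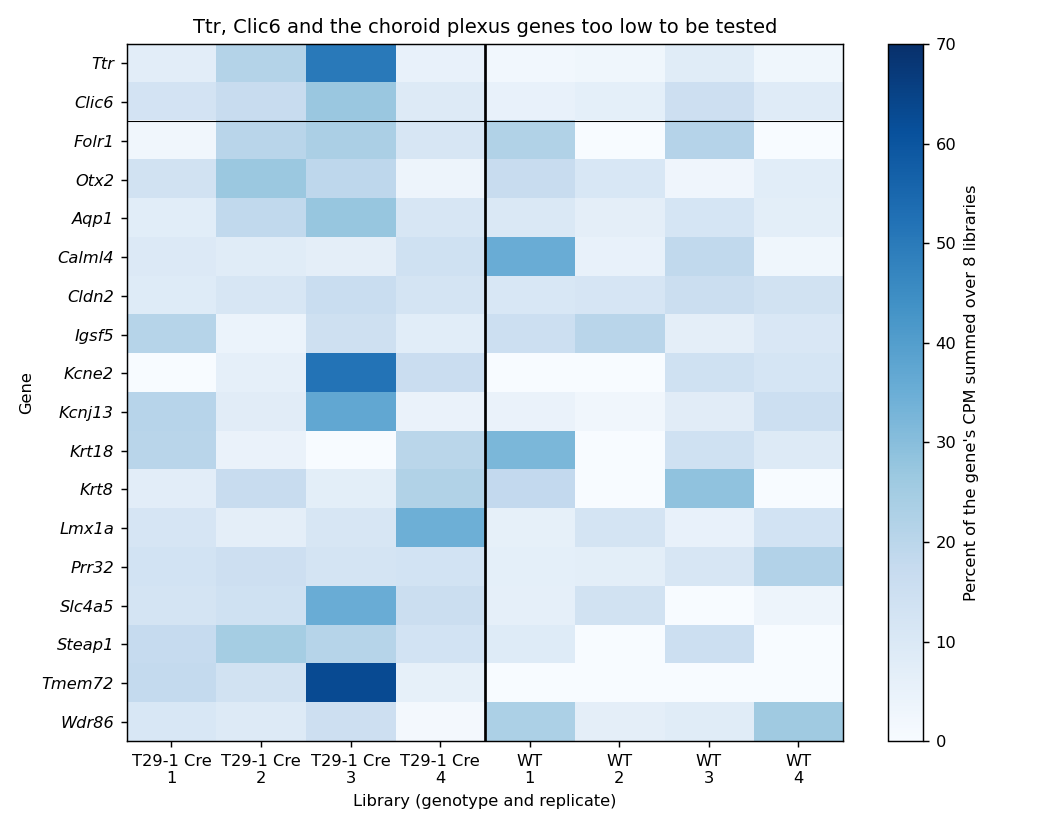
Share of each gene's CPM, summed over the 8 libraries, that fell in each library (percent, darker is more), for Ttr and Clic6 above the line and for Folr1, Otx2 and 14 further choroid plexus genes too low to be tested below it, T29-1 Cre on the left and WT on the right. T29-1 Cre replicate 3 held 50.3% of Ttr, 62.6% of Tmem72, 51.7% of Kcne2 and 37.1% of Kcnj13, but 27.0% of Clic6 and 23.4% of Folr1.

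Among the 10 genes most like Ttr after the members were Tmprss7 (r = 0.97), Pitpnm3 (0.97), Sobp (0.96), the mitochondrial isoleucyl-tRNA synthetase Iars2 (0.94), the mitochondrial malic enzyme Me3 (0.94), Armc8 (0.93), 4930415F15Rik (0.92), the kinase Eef2k (0.91) and 3110067C02Rik (0.91), each over the 8 libraries. None of these is in the lists of choroid plexus genes. Adjusted p of the exact permutation test was 0.88 to 0.951 for them. Their slopes on Ttr ran from 0.022 log2 units for Me3 to 0.31 for 4930415F15Rik, so that none moved as far per unit of Ttr as Clic6.

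Lists of markers were also read for other cell types near the hippocampus, with no list for neurons of the hippocampus or cortex. None of the 16 tested ependymal, 24 fibroblast, 20 oligodendrocyte, 20 endothelial and mural, 15 astrocyte, 5 blood cell and 11 thalamic and habenular markers had an r of at least 0.7 with Ttr, against 2.18% of all tested genes, a share at which lists of these sizes could hold none. Their median r was -0.25, -0.03, -0.49, 0.06, -0.31, -0.41 and 0.09, in the same order. The highest of each were Hydin (0.07) and Dnah11 (0.05), Foxd1 (0.43) and Slc22a8 (0.34), Aspa (0.22) and Nkx6-2 (0.06), Higd1b (0.64) and Abcc9 (0.51), Fgfr3 (0.43) and Slc1a2 (0.34), Hba-a2 (-0.21) and Hbb-bs (-0.35), and Gpr151 (0.45) and Rora (0.30). The summed ependymal level was 79.8 to 85.6 CPM in T29-1 Cre and 72.3 to 120.6 CPM in WT, with WT replicate 1 on top.

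The pathways in which the members act were read from 7 lists. EdgeR called 0 of their 69 tested genes between the genotypes, as did DESeq2 and limma-voom, with 3 at an unadjusted p under 0.05 by each tool (by edgeR, Thrb, Fgfr3 and Wif1), where 2.43% of all tested genes had such a p by edgeR. In the thyroid hormone and retinol list (13 tested, median log2 fold change -0.01) the smallest p belonged to the thyroid hormone receptors Thrb (0.15, SE 0.0675) and Thra (-0.05, SE 0.0537). In the folate list (9 tested, -0.04) it was Mthfd1l (0.17, SE 0.0932) and the folate transporter Slc46a1 (-0.20, SE 0.117). In the klotho and fibroblast growth factor list (5 tested, 0.03) it was the receptor Fgfr3 (0.17, SE 0.061) and the protease Adam10 (0.06, SE 0.0589). In the lysophosphatidic acid list (9 tested, 0.05) it was Enpp4 (0.10, SE 0.0705) and the receptor Lpar2 (-0.31, SE 0.225).

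In the prolactin and growth hormone list (8 tested, -0.01) the smallest p belonged to the signalling inhibitors Socs3 (0.41, SE 0.23) and Socs1 (-0.40, SE 0.259). In the bone morphogenetic protein and Wnt list (15 tested, 0.02) it was the Wnt antagonist Wif1 (0.67, SE 0.247) and Bmp2 (0.26, SE 0.141). In the insulin-like growth factor list (10 tested, 0.08) it was the RNA-binding protein gene Igf2bp2 (0.64, SE 0.317) and Igfbp4 (-0.08, SE 0.0642). An r with Ttr of at least 0.7 was found for 3 of the 69 (4.35%), against 2.18% of all tested genes, namely Igf2bp2 at 0.85 with 8 to 24 counts per library, Socs3 at 0.84 with 16 to 43, and Igfbp5 at 0.77, which is named after its values were seen.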

How the data were processed

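Per the labels' protocols, poly(A) RNA of the hippocampus was made into stranded libraries and sequenced as paired-end reads, with all libraries on 1 lane. GRCm38, STAR 2.6.1d, featureCounts and edgeR 3.11 are named per the submitters' processing notes. For counting, the annotation release and the strand setting were not given in the sources used here. Raw read counts were deposited for 46078 gene rows in 8 libraries, of which every column matched a sample by its title. Their own comparison table was not used.

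In R 4.3.3, edgeR 4.0.16 kept 15996 genes (filterByExpr, minimum count 10, minimum total 15), scaled libraries by TMM, and compared the genotypes by the quasi-likelihood F test with Benjamini-Hochberg adjustment over all tested genes, with no covariate. Library sizes scaled by TMM underlie CPM, and log2 CPM has a prior count of 2. Likeness to Ttr was Pearson's r of log2 CPM over the 8 libraries, computed for every tested gene, with an exact two-sided permutation p over all 40320 orders of the libraries and the same adjustment. An r of at least 0.7 is called following Ttr, as a description. The 2 genes below the filter were correlated on log2 CPM made without a filter. Gene positions and exon lengths come from GENCODE M21 on GRCm38 and promoter sequences from RefSeq on GRCm38.p6.

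The 10 genes and the lists were chosen with earlier results of these data known, and Ttr was chosen for its values in the genotype contrast. The rule for named genes took the 10 members, the 10 genes most like Ttr, the 6 highest and 3 lowest by r of the list of other choroid plexus genes, the 2 highest by r of each other cell type list, and the 2 smallest p of each pathway list. Of the genes that rule took, 1 is not reported here. Genes named outside it are said to be so. Nothing in the labels says that replicates are separate animals, so the p-values cover the spread of these samples only, and that spread may be technical. No pair of libraries of a genotype agreed within counting noise (chi-square over degrees of freedom 3.16 to 17.8). Shares and limits from counts cover counting error only. Scripts were tested on simulated data. Alternatives used DESeq2 1.42.0, limma 3.58.1 (voom), other scalings and filters, a replicate block and each library left out.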

Additional observations from a re-analysis of the deposited data

Results flagged for a closer look

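Each of the 10 genes was screened in each genotype for a library far from the other 3, which makes 20 groups, and 1 was found. Prlr in WT replicate 2 was at 1.58 log2 CPM, against 1.67 to 1.69 in the other WT libraries. The gap took up 0.83 of the range. Chance alone gives about 1 such group in 20, and the WT counts of Prlr behind it were 72 to 95.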

How the results depend on the processing

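The genotype comparison called 1 gene in 13 of 15 alternatives and 2 in the others, namely with no filter on low counts and with a replicate block. Ttr was among the 2 genes in both, and the cause was not tested. As Ttr was chosen for its values in this contrast, these calls are not read as a test of it. Same-numbered libraries did not deviate together (correlation of deviations -0.07 to 0.05), so the numbers are not taken as pairs. With each library left out in turn the count was 1 to 1. The genes other than Ttr were called in none of their alternatives. Their direction turned only without 1 library: Enpp2 ran from -0.0046 to 0.10, Igfbp2 from -0.10 to 0.21 and Igf2 from -0.15 to 0.25.

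The count of genes at an r of at least 0.7 with Ttr, 348 of 15995, was 595 by Spearman's rho, 916 of 26430 with no filter, 924 with the replicate block, 641 without the 2 libraries farthest from the median of Ttr and 430 to 672 with each library left out in turn. The members at that r were 2 or 3 in all 18 alternatives. Clic6 stayed at 0.94 to 0.98 and Kl at 0.74 to 0.94, and Enpp2 joined them only without WT replicate 1. Sostdc1 ran from -0.82 with the replicate block to -0.05 as deviations from the genotype means. Depth limits Folr1 and Otx2, with 46 and 29 counts in all, and the r of genes whose counts spread no more than counting noise.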

Other observations

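Tbr1, a transcription factor of cortical glutamatergic neurons that was chosen after its values were seen, was the gene most like Clic6 after Ttr, with an r of 0.97 over 8 libraries (exact permutation p = 0.000372, adjusted p = 0.999), and its r with Ttr was 0.91. Its level was 58.0, 57.4, 66.5 and 54.1 CPM in T29-1 Cre replicates 1 to 4, against 50.9, 50.6, 60.2 and 53.2 CPM in WT replicates 1 to 4. Replicate 3 was the highest library of each genotype, as it was for Ttr and Clic6.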
